A study of Mus musculus with 28 samples.

Results

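The genes described here are 55 mouse genes of cell proliferation and DNA replication, a list of known cell cycle genes taken by symbol and found in the count table by Ensembl gene ID. The list was chosen with earlier results of these data known. Its counts of calls beside the shares of all genes are therefore descriptive. All 55 listed genes were present among the 50600 genes of the table. They fall into 9 roles: 9 kinases, cyclins and regulators of mitotic entry, 8 genes of the spindle and of cytokinesis, 8 genes of the kinetochore and spindle checkpoint, 2 partners of the anaphase-promoting complex, 2 genes of mitotic chromosomes that serve as general proliferation markers, 4 cyclins and E2F factors of the G1/S transition, 12 genes that license origins or form the replicative helicase, 7 genes of DNA synthesis and nucleotide supply, and 3 genes of the S-phase checkpoint, repair and maintenance methylation. In a cell that enters the cycle, cyclin E and the E2F factors switch on the genes of DNA synthesis, and the MCM helicase that was loaded onto origins in G1 then unwinds the DNA. Later, FOXM1 and B-MYB switch on the genes of mitosis, and the anaphase-promoting complex ends mitosis by marking cyclin B and securin for destruction. In the adult mammary gland, estrogen and progesterone are known to drive division of epithelial cells, largely through signals that receptor-bearing cells pass to their neighbours.

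The data come from 28 RNA libraries of cells sorted by flow cytometry from the mammary glands of 7 female mice on the C57BL/6 strain that carried PdgfrαCre and the R26mTmG reporter. The mice were adult, 10 to 12 weeks old in the study's description of this tracing line. In each of 4 untreated mice and 3 mice given 17β-estradiol plus progesterone (E+P), GFP+ and tdTomato+ cells were taken from both the luminal epithelium (CD49f low, EpCAM+) and the stroma (CD49f−, EpCAM−) after removal of cells that bore CD31, CD45 or Ter119. This gives 8 groups: GFP+ luminal cells, tdTomato+ luminal cells, GFP+ stroma and tdTomato+ stroma, each untreated (4 libraries) or after E+P (3 libraries). The hormones were given as pellets of 0.14 mg 17β-estradiol and 14 mg progesterone for 14 days, a dose that the methods state for wild-type mice and not separately for the reporter mice. Cre was driven by the Pdgfra promoter at all ages and its mark is permanent, so GFP labels cells in which the promoter was active at any time and all their descendants, and does not show that a sorted cell expressed Pdgfra. Libraries were made with a stranded total RNA kit for very small inputs and 15 cycles of PCR. The integrity of the RNA ranged widely according to the study's methods, which give no value for each library. Total counts ran from 8623383 to 24583803 per library (median 15329083.5). Within a group, the log2 levels of 2 libraries correlated across genes with r of 0.943 to 0.990.

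Levels are counts scaled to a library of 1e+06 (CPM), normalised by TMM over the 28 libraries, and 3 counts, taken as the floor of detection, correspond to 0.116 to 0.302 CPM in a library. Differences were tested with edgeR's quasi-likelihood test, and p was adjusted by Benjamini-Hochberg over every gene that entered the comparison. A gene is called higher or lower at an adjusted p under 0.01. A value in brackets after a gene is its log2 fold change, with its standard error (SE) and adjusted p from that test where they are given. The SE and p rest on the spread between libraries within a group, each from another mouse, shared over the groups of a fit and moderated over genes. The SE was derived from the log2 fold change and the F value of the test. Groups sorted from the same mice were treated as independent, except where the mouse was a block. The floor covers the error of counting alone, as no molecular identifiers were read. In sorted bulk cells, a smaller share of cycling cells and less RNA of a gene in each cell cannot be told apart. The strand used for counting is not stated, so reads of a member and of a gene that overlaps it on the opposite strand cannot be told apart either. Overlaps of over 300 exon bases joined Gins2 to Gse1 (2758 bases), Kif20a to Cdc23 (1271), Prc1 to Rccd1 (911), Cdc25c to Gm3550 (623), E2f8 to Gm2788 (610), Ccne2 to Ints8 (609), Ube2c to the muscle gene Tnnc2 (592), Ccna2 to Exosc9 (510) and Mcm7 to Ap4m1 (321).

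The sorted populations carried the markers of their labels. The summed level of 8 luminal epithelial genes, led by Krt18, was 5704 to 7740.0 CPM in untreated GFP+ luminal cells and 7371 to 7916 CPM in untreated tdTomato+ luminal cells, against 19.8 to 92.4 CPM in GFP+ stroma and 20.1 to 505 CPM in tdTomato+ stroma. The summed level of 7 genes of fibroblasts and adipocyte progenitors, Pdgfra among them and Col3a1 the most abundant, was 31745 to 61188 CPM in untreated GFP+ stroma, 2343 to 6527 CPM in tdTomato+ stroma and at most 110.4 CPM in untreated luminal libraries. The tdTomato+ stroma instead held the most abundant pericyte and smooth muscle genes (7 genes, 6098 to 8784 CPM untreated) and skeletal muscle genes (6 genes, 1903 to 9619 CPM).

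Summed over the 55 members, untreated GFP+ luminal cells gave 379, 404, 1130.5 and 786 CPM, a mean of 675 ± 356 (SD, n = 4), and the same population after E+P gave 4285, 3712 and 3414 CPM, a mean of 3804 ± 443 (SD, n = 3). In tdTomato+ luminal cells the sum was 328, 482, 615 and 515 CPM untreated, a mean of 485 ± 119 (SD, n = 4), and 1089, 956 and 753 CPM after E+P, a mean of 933 ± 169.6 (SD, n = 3). Both luminal populations had every E+P library above every untreated one, and the GFP+ libraries after E+P were the highest of all 28. In GFP+ stroma the sum was 207, 264, 230.2 and 212 untreated and 220.1, 241 and 226 CPM after E+P, and in tdTomato+ stroma it was 555, 609, 399 and 388 untreated and 559.9, 442 and 417 CPM after E+P. The stromal groups overlapped between treatments, and each tdTomato+ stromal library lay above every GFP+ one. The sums in tdTomato+ stroma include Ube2c, which shares exon bases with the muscle gene Tnnc2. There Ube2c was at 175, 47.8, 10.3 and 36.2 untreated and 39.0, 45.2 and 19.6 CPM after E+P.

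On the scale of CPM per kb of exon, which allows levels of different genes to be compared, the highest means in untreated GFP+ luminal cells were the helicase subunit Mcm6 (14.3), the chromosome-coating protein Mki67 (13.1) and the polymerase clamp Pcna (10.8), with Mki67 above Mcm6 in mice 3 and 4 alone. After E+P they were Mki67 (118), Mcm6 (33.0) and Top2a (30.2), the topoisomerase that untangles sister chromatids. In untreated tdTomato+ luminal cells Mcm6 led (18.9), and after E+P Mki67 did (22.2). In GFP+ stroma Pcna led in both conditions (13.1 and 12.1). In tdTomato+ stroma Ube2c led untreated (25.9, above Pcna in mice 1 and 2 alone, with exon bases shared with Tnnc2) and Pcna after E+P (19.6). Mki67 alone made up 19.5% of the summed CPM of the 55 members in untreated GFP+ luminal cells and 31.2% after E+P. Its share was 13.1% and 23.9% in tdTomato+ luminal cells, 2.22% and 2.97% in GFP+ stroma, and 7.93% and 14.7% in tdTomato+ stroma. In untreated stroma Mki67 was highest in mouse 2, at 10.8 CPM in GFP+ and 93.8 CPM in tdTomato+ cells. The other untreated mice were at 1.36 to 5.49 and 14.9 to 27.8 CPM, so the untreated stromal shares depend on mouse 2.

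**Figure D1:**
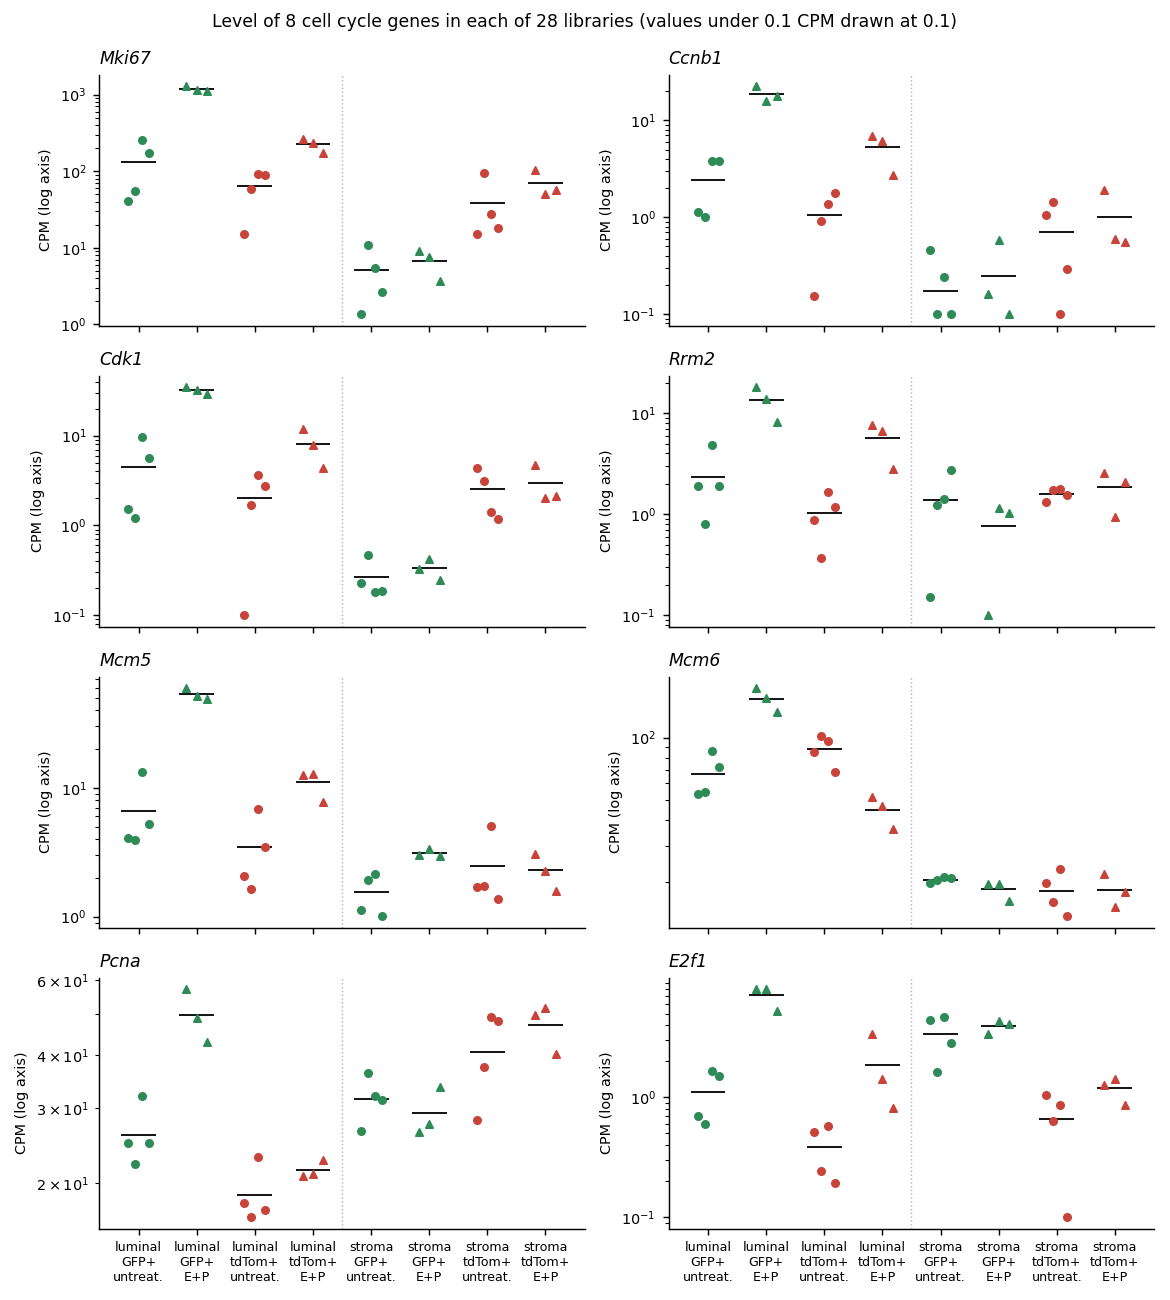
Level of 8 members in each of the 28 libraries, in CPM on a log axis, with 1 point for each library and a line at the mean of the group. Values under 0.1 CPM are drawn at 0.1.

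The first comparison asks how the hormones altered the members in GFP+ luminal cells, the epithelial cells with a history of Pdgfra promoter activity. Of 55 members, 46 were called higher after E+P, where 3.17% of all genes tested were, and 0 were called lower by edgeR's test, where 2.78% of all genes were. No member had an unadjusted p under 0.05 in the lower direction, where 29.9% of all genes had one in either direction. Neither DESeq2 nor limma-voom called any member lower, while DESeq2 called 53 and limma-voom 52 of the 55 higher. In 55 of 55 members every E+P library lay above every untreated library, as did 14.3% of all genes tested. The median log2 fold change of the members was 2.60 (from 0.93 to 3.24), against -0.03 over all genes tested. Scaled by library size alone, the median of all genes was -0.14, with 357 of 993 called genes higher (525 of 985 by TMM).

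Mki67, a protein that coats mitotic chromosomes and marks proliferating cells, measured 40.9, 54.6, 257 and 174 untreated and 1295, 1158 and 1106 CPM after E+P, and its log2 fold change in GFP+ luminal cells was 3.17 (SE 0.65, adjusted p = 0.00757). Top2a measured 10.7, 14.3, 75.9 and 43.3 untreated and 304, 265 and 247 CPM after E+P, a log2 fold change of 2.91 (SE 0.60, adjusted p = 0.00787). In both genes untreated mice 3 and 4 were above mice 1 and 2, and all 4 stayed below the lowest treated mouse. Both members of this role were called, with a median log2 fold change of 3.04.

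Among the regulators of mitotic entry, 6 of 9 were called higher in GFP+ luminal cells, with a median log2 fold change of 2.73. Ccnb2, a B-type cyclin that activates Cdk1, measured 1.46, 1.21, 4.00 and 3.22 untreated and 27.1, 24.4 and 17.0 CPM after E+P (log2 fold change 3.18, SE 0.48, adjusted p = 0.00133). Ccnb1, the other B-type cyclin, measured 1.14, 1.01, 3.83 and 3.78 untreated and 22.7, 15.9 and 17.995 CPM after E+P, a log2 fold change of 2.92 (SE 0.58, adjusted p = 0.00540). Foxm1, the transcription factor of G2 and mitotic genes, measured 3.11, 2.12, 9.89 and 7.71 untreated and 43.1, 37.5 and 33.9 CPM after E+P, a log2 fold change of 2.72 (SE 0.46, adjusted p = 0.00262). For these 3 genes untreated mice 3 and 4 were again the highest of the untreated group, without reaching the treated mice. Cdk1, the kinase that starts mitosis, measured 1.52, 1.21, 9.54 and 5.66 untreated and 34.9, 32.0 and 29.5 CPM after E+P. Its libraries did not overlap between treatments, but the difference missed the threshold (log2 fold change 2.81, SE 0.77, adjusted p = 0.0301). Ccna2 and Plk1, a cyclin and a kinase of mitotic entry, also missed it, with adjusted p values of 0.0206 and 0.0128.

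Of the 8 spindle and cytokinesis genes, 8 were called higher in GFP+ luminal cells (median log2 fold change 2.83), and of the 8 kinetochore and checkpoint genes 7 were (median 2.81). Kif11, the kinesin that pushes spindle poles apart, measured 4.56, 3.63, 19.0 and 11.5 untreated and 75.9, 60.8 and 65.8 CPM after E+P (log2 fold change 2.78, SE 0.49, adjusted p = 0.00321). Bub1, a kinase of the spindle checkpoint, had the largest difference of the 55 members, 0.317, 1.41, 4.80 and 1.97 untreated and 21.9, 20.4 and 19.6 CPM after E+P, a log2 fold change of 3.24 (SE 0.59, adjusted p = 0.00357). In Bub1 the lowest treated library was several times above the highest untreated one. Cenpe, a kinesin that ties kinetochores to microtubules, measured 8.18, 8.86, 29.8 and 29.1 untreated and 195, 153 and 145 CPM after E+P, a log2 fold change of 3.10 (SE 0.55, adjusted p = 0.00342). Ttk, the kinase that starts the spindle checkpoint, measured 1.20, 0.504, 4.92 and 1.26 untreated and 19.7, 15.8 and 15.8 CPM after E+P, a log2 fold change of 3.06 (SE 0.60, adjusted p = 0.00506). Aurkb, the kinase of the chromosomal passenger complex, measured 0.571, 1.01, 5.09 and 2.83 untreated and 19.2, 17.3 and 13.1 CPM after E+P, a log2 fold change of 2.76 (SE 0.59, adjusted p = 0.00812). Cenpf, a kinetochore protein, was the member of these roles that missed the threshold (adjusted p = 0.0130). Of the partners of the anaphase-promoting complex both were called (median log2 fold change 2.64), and Cdc20, its mitotic activator, measured 1.46, 2.32, 6.92 and 5.74 untreated and 32.7, 23.7 and 19.3 CPM after E+P, a log2 fold change of 2.60 (SE 0.48, adjusted p = 0.00356).

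Of the G1/S cyclins and E2F factors, 2 of 4 were called higher in GFP+ luminal cells (median log2 fold change 2.47). E2f1, a transcription factor of S-phase genes, measured 0.697, 0.604, 1.66 and 1.49 untreated and 8.03, 8.03 and 5.25 CPM after E+P, a log2 fold change of 2.64 (SE 0.51, adjusted p = 0.00387). The E-type cyclins that start S phase missed the threshold. Ccne1 measured 0.190, 0, 0.972 and 0.629 untreated and 3.13, 2.86 and 1.04 CPM after E+P (adjusted p = 0.0445). Ccne2 measured 0.824, 0.806, 2.91 and 1.97 untreated and 5.71, 4.53 and 3.00 CPM after E+P (adjusted p = 0.117). Ccne1 was near the floor in some libraries, and the lowest treated library of each cyclin was just above the highest untreated one.

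Of the 12 licensing and helicase genes, 11 were called higher in GFP+ luminal cells, with a median log2 fold change of 2.02. Mcm5, a subunit of the helicase, measured 4.06, 3.93, 13.3 and 5.27 untreated and 59.6, 51.8 and 49.0 CPM after E+P, a log2 fold change of 2.99 (SE 0.48, adjusted p = 0.00216). Mcm2, another subunit, measured 12.05, 6.24, 29.2 and 9.67 untreated and 65.7, 55.8 and 48.5 CPM after E+P, a log2 fold change of 1.97 (SE 0.39, adjusted p = 0.00615). Cdc6, which loads the helicase onto origins, measured 0.824, 1.81, 2.86 and 0.708 untreated and 6.60, 7.44 and 5.71 CPM after E+P, a log2 fold change of 2.07 (SE 0.46, adjusted p = 0.00933). Untreated mouse 3 was the highest of the untreated group for all 3 genes and remained below the treated mice. Gins1, a subunit of the active helicase, was the member of this role that missed the threshold (adjusted p = 0.0117).

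Of the 7 genes of DNA synthesis and nucleotide supply, 5 were called higher in GFP+ luminal cells (median log2 fold change 1.58). Pcna, the sliding clamp of the replicative polymerases, measured 24.8, 22.2, 32.1 and 24.9 untreated and 57.1, 48.8 and 42.8 CPM after E+P, the smallest of the called differences (0.93, SE 0.15, adjusted p = 0.00156). Rrm1, the large subunit of ribonucleotide reductase, had the smallest adjusted p of the members, with 20.7, 22.9, 33.2 and 24.5 untreated and 88.1, 77.3 and 62.2 CPM after E+P and a log2 fold change of 1.58 (SE 0.16, adjusted p = 0.000117). Untreated Rrm1 and Pcna levels varied little between mice beside the step to the treated group. Rrm2, the regulated subunit of the same enzyme, measured 1.90, 0.806, 4.80 and 1.89 untreated and 18.2, 13.8 and 8.12 CPM after E+P (2.46, SE 0.54, adjusted p = 0.00861). Tk1, the thymidine kinase of S phase, measured 1.58, 1.31, 4.69 and 3.07 untreated and 16.5, 15.1 and 8.46 CPM after E+P (2.30, SE 0.39, adjusted p = 0.00210). Pola1, the catalytic subunit of DNA polymerase alpha, and Tyms, which makes thymidylate, missed the threshold (adjusted p = 0.0283 and 0.0193). All 3 genes of checkpoint, repair and maintenance methylation were called, with a median log2 fold change of 2.25. Brca1, a protein of DNA repair, measured 4.88, 4.63, 18.3 and 7.32 untreated and 44.0, 41.1 and 42.0 CPM after E+P (2.25, SE 0.38, adjusted p = 0.00251). Uhrf1, which brings the maintenance methyltransferase to replicated DNA, measured 2.98, 4.33, 19.9 and 6.37 untreated and 80.0, 66.7 and 52.7 CPM after E+P (2.96, SE 0.59, adjusted p = 0.00675). For both genes untreated mouse 3 stood above the other untreated mice.

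The count of 46 called members in GFP+ luminal cells fell to 8, 8 and 20 without treated mouse 1, 2 or 3, and to 25 and 30 without untreated mouse 2 or 4, while all 55 log2 fold changes were above 0 in each of these fits. It was 28 with no filter on low counts and 20 in a fit on the compared groups alone. Marker levels moved with this comparison. The 5 hormone-sensing luminal genes (Prlr the most abundant, none at 0) summed to 1063, 406, 1698 and 258 untreated and 255, 179 and 146 CPM after E+P, with 2 of 5 called lower. The 4 luminal progenitor genes (Kit the most abundant) summed to 1882, 2277, 1406 and 1871 CPM and 1194, 1011 and 1089 CPM, with 0 of 4 called by edgeR. The 6 basal genes (Oxtr the most abundant) summed to 52.0, 114, 63.7 and 65.1 CPM and 136, 135 and 122 CPM, with 0 of 6 called by edgeR. Of the basal genes, Oxtr ranged from 27.9 to 66.2 untreated and 73.0 to 103 CPM after E+P. Acta2 went the other way, with 7.89 to 28.4 untreated and 3.02 to 5.33 CPM after E+P. Mitochondrial genes took 6.23 to 9.35% of the counts untreated and 13.7 to 15.9% after E+P, the 10 most abundant genes 19.6 to 25.6% and 27.6 to 32.5%, protein-coding genes outside the mitochondria 72.8 to 77.8% and 64.8 to 69.7%, and the part of these shifts in the members' difference was not tested.

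**Figure D2:**
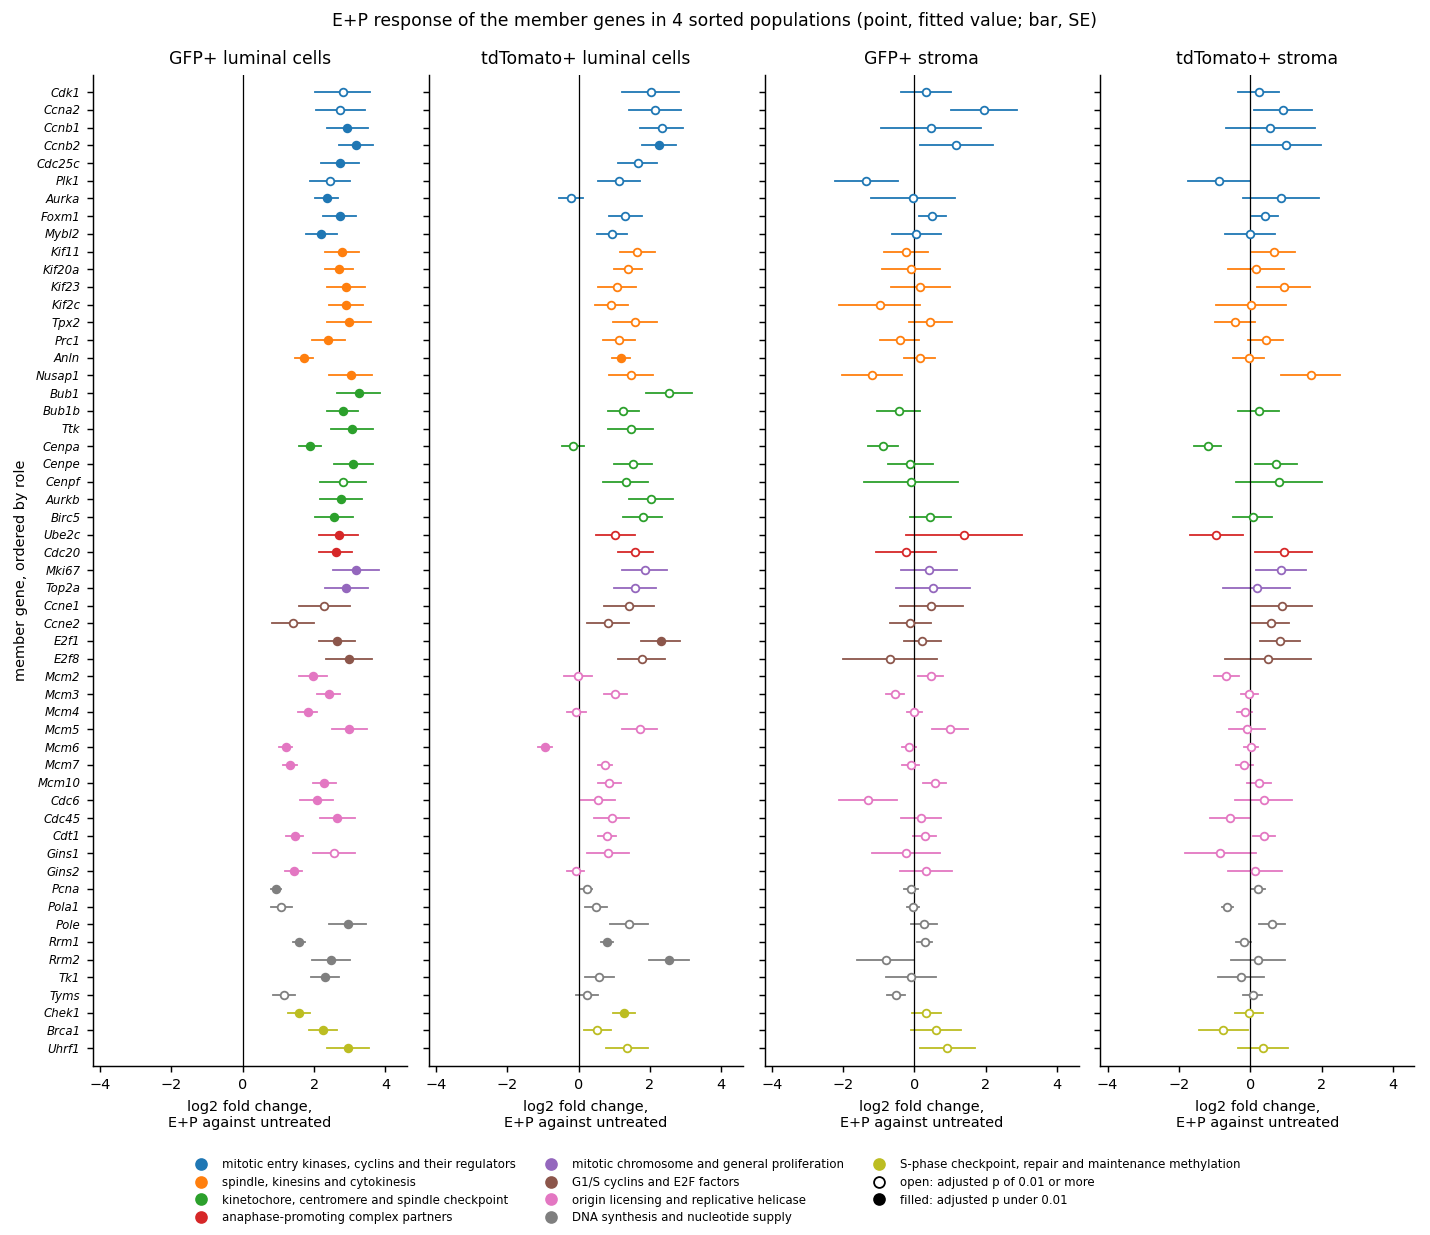
Log2 fold change of each tested member after E+P in the 4 populations, ordered and coloured by role, with a bar for the SE. Filled points have an adjusted p under 0.01 and open points do not.

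In tdTomato+ luminal cells, the epithelial cells in which the reporter had not been switched, fewer members passed the test. Of 55 members, 6 were called higher after E+P, where 7.63% of all genes were, and 1 was called lower, where 6.44% of all genes were. The log2 fold change was above 0 for 49 members and its median was 1.26, against -0.05 over all genes. In 32 of 55 members every E+P library lay above every untreated one, as did 17.1% of all genes, and for 1 member, Mcm6, every E+P library lay below, as did 18.8% of all genes. With library sizes in place of TMM the median of all genes was -0.27, with 731 of 2896 called genes higher (1262 of 2327 by TMM), and 2 of 3 called members were higher.

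The called members of tdTomato+ luminal cells came from several roles. Rrm2 measured 0.878, 0.365, 1.66 and 1.16 untreated and 7.70, 6.71 and 2.81 CPM after E+P, a log2 fold change of 2.52 (SE 0.56, adjusted p = 0.00531). E2f1 measured 0.517, 0.243, 0.579 and 0.194 untreated and 3.37, 1.41 and 0.809 CPM after E+P, a log2 fold change of 2.30 (SE 0.55, adjusted p = 0.00761), and all its values were a few CPM at most. Ccnb2 measured 0.413, 1.95, 1.81 and 2.75 untreated and 10.3, 8.04 and 6.28 CPM after E+P, a log2 fold change of 2.26 (SE 0.48, adjusted p = 0.00405). For each of these 3 genes treated mouse 1 was the highest library and mouse 3 the lowest treated one, still above the untreated group. Chek1, the kinase that halts the cycle when replication stalls, measured 1.963, 2.62, 2.97 and 2.37 untreated and 3.93, 8.85 and 4.57 CPM after E+P (1.26, SE 0.31, adjusted p = 0.00840). Anln, a scaffold of the contractile ring, measured 22.9, 27.2, 26.4 and 29.6 untreated and 71.8, 59.4 and 46.0 CPM after E+P (1.18, SE 0.26, adjusted p = 0.00504), and its treated libraries stood well apart from an even untreated group. Rrm1 measured 13.8, 12.2, 12.9 and 16.1 untreated and 23.7, 23.4 and 23.1 CPM after E+P (0.79, SE 0.16, adjusted p = 0.00308). Mcm6 was the member called lower, with 85.5, 102, 96.4 and 68.1 untreated and 51.7, 46.6 and 36.3 CPM after E+P and a log2 fold change of -0.94 (SE 0.19, adjusted p = 0.00305). Mcm6 thus went the other way from GFP+ luminal cells, where it was called higher with 53.6, 54.4, 86.4 and 72.4 untreated and 173, 155 and 134 CPM after E+P.

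Most mitotic members of tdTomato+ luminal cells had treated libraries above untreated ones without passing the test. Mki67 measured 15.0, 58.3, 92.0 and 88.7 untreated and 265, 232 and 173 CPM after E+P, a log2 fold change of 1.85 (SE 0.63, adjusted p = 0.0465). Top2a measured 8.37, 16.5, 33.9 and 25.4 untreated and 73.1, 62.4 and 47.9 CPM after E+P, a log2 fold change of 1.57 (SE 0.59, adjusted p = 0.0668). In both genes untreated mouse 1 was the lowest library, and the treatments did not overlap. Cdk1 measured 0.0517, 1.70, 3.69 and 2.72 untreated and 11.9, 7.95 and 4.33 CPM after E+P. Ccnb1 measured 0.155, 0.913, 1.37 and 1.78 untreated and 6.98, 6.16 and 2.76 CPM after E+P. Foxm1 measured 1.65, 4.26, 3.83 and 5.32 untreated and 11.9, 9.07 and 6.47 CPM after E+P. In these 3 genes too untreated mouse 1 was the lowest and every treated library was above the untreated ones. Kif11 measured 2.27, 6.70, 7.02 and 4.77 untreated and 15.1, 17.9 and 14.4 CPM after E+P. Cdc20 measured 1.03, 3.59, 2.24 and 1.90 untreated and 8.50, 5.94 and 4.90 CPM after E+P. Bub1 measured 0.207, 0.913, 1.30 and 0.582 untreated and 4.89, 4.32 and 3.24 CPM after E+P. Again no treated library reached down to the untreated range. Aurkb measured 0.671, 0.609, 1.74 and 1.16 untreated and 6.17, 4.40 and 1.95 CPM after E+P, with its lowest treated library just above the highest untreated one. The median log2 fold change was 1.65 for mitotic entry, 1.28 for the spindle, 1.49 for the kinetochore, 1.31 for the anaphase-promoting complex and 1.71 for mitotic chromosomes.

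In tdTomato+ luminal cells the median log2 fold change was 1.59 for the G1/S genes, 0.77 for licensing and helicase, 0.58 for DNA synthesis and 1.26 for the checkpoint and repair genes. Mcm5 measured 2.07, 1.64, 6.80 and 3.45 untreated and 12.7, 12.9 and 7.71 CPM after E+P, and its treated libraries were above the untreated ones. Mcm2 measured 21.4, 18.9, 29.1 and 16.3 untreated and 20.4, 22.0 and 19.5 CPM after E+P. Pcna measured 17.98, 16.6, 23.1 and 17.3 untreated and 20.8, 20.96 and 22.7 CPM after E+P. Cdc6 measured 0.620, 0.974, 1.95 and 1.71 untreated and 2.41, 1.75 and 1.48 CPM after E+P. In these 3 genes the treated libraries lay inside or across the untreated range. Ccne1 ranged from 0.310 to 0.940 untreated and 0.898 to 1.86 CPM after E+P. Ccne2 ranged from 0.155 to 1.88 untreated and 1.67 to 2.44 CPM after E+P. Tk1 ranged from 1.77 to 3.14 untreated and 2.76 to 4.57 CPM after E+P. All 3 overlapped between treatments. Brca1 ranged from 7.92 to 11.8 untreated and 10.6 to 15.96 CPM after E+P, also with overlap. Uhrf1 measured 2.74, 6.64, 10.8 and 3.65 untreated and 18.8, 14.3 and 11.1 CPM after E+P, with every treated library above the untreated ones by a small margin. The count of 7 called members was 1, 0 and 2 without treated mouse 1, 2 or 3. It was 4, 11 and 4 without untreated mouse 1, 3 or 4, 3 with library sizes in place of TMM and 20 by DESeq2. In tdTomato+ cells hormone-sensing genes summed to 3725, 5099, 4187 and 3328 untreated and 1720.0, 2667 and 2794 CPM after E+P (0 of 5 called by edgeR, none at 0). Prlr, the most abundant of them, ranged from 2481 to 3561 untreated and 961 to 1706 CPM after E+P. Pgr did not fall, with 302 to 691 untreated and 509 to 727 CPM after E+P. Basal genes summed to 12.5, 9.496, 20.3 and 23.4 CPM and 64.2, 43.4 and 36.8 CPM (2 of 6 called higher). Against that rise, Acta2 was at 1.89 to 7.23 untreated and 1.43 to 1.68 CPM after E+P. Luminal progenitor genes summed to 491, 170.3, 402 and 663 CPM and 161, 144 and 95.1 CPM (2 of 4 called lower). Mitochondrial genes took 9.90 to 10.4% of the counts untreated and 10.7 to 12.8% after E+P, the 10 most abundant genes 24.65 to 26.0% and 27.9 to 33.5%, and protein-coding genes outside the mitochondria 71.8 to 72.8% and 64.2 to 70.2%. The part of these shifts in the members' differences was not tested.

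Whether the hormone response of the members differed between the GFP+ and tdTomato+ luminal cells was tested as the difference of the 2 log2 fold changes. It was positive for 54 of 55 members with a median of 1.32, against 0.01 over all genes. At the threshold, 2 members were called larger in GFP+ cells, where 0.786% of all genes were, and 0 by edgeR were called smaller, where 1.49% of all genes were. No member had an unadjusted p under 0.05 in the smaller direction, and 18 had one in the larger direction. Over all genes, 22.0% had one in either direction. DESeq2 called 6 and limma-voom 4 members larger and none smaller. In GFP+ cells Aurka, the kinase of spindle poles, measured 2.16, 1.81, 4.63 and 1.57 untreated and 13.4, 14.3 and 12.1 CPM after E+P. In tdTomato+ cells Aurka measured 3.51, 5.90, 5.35 and 5.74 untreated and 4.65, 5.09 and 3.24 CPM after E+P, and the difference of its responses was 2.57 (SE 0.46, adjusted p = 0.00512) on the log2 scale. Mcm6, described for each population, had a difference of responses of 2.15 (SE 0.27, adjusted p = 0.000683). Both genes were above the untreated group after E+P in GFP+ cells, and in tdTomato+ cells Mcm6 was below it and Aurka lay across it.

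With the mouse as a block, since both luminal populations came from the same mice, 8 members were called, the further ones being Mcm2, Mcm3, Mcm4, Mcm5, Cenpa and Uhrf1, with differences of responses from 1.34 to 2.17. With a mouse left out, the count of 2 was 1, 0 and 1 for treated mice 1, 2 and 3, 1, 1 and 1 for untreated mice 1, 2 and 4, and 5 for untreated mouse 3. Scaled by library size alone, the median of all genes was 0.13, with 203 of 368 called genes larger (130 of 376 by TMM). By that scaling 3 of 3 called members were larger.

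In the stroma edgeR with its filter called no member after E+P, and other fits called up to 3 in tdTomato+ cells. The 51 members tested leave out Aurkb, Bub1, Cdc25c and Ttk, whose counts were too low there. In GFP+ stroma, 0 of 51 members were called by edgeR after E+P, where 0.231% of all genes were called in either direction. Here 3 members and 8.04% of all genes had an unadjusted p under 0.05, and both DESeq2 and limma-voom called 0 members. Over the members the median log2 fold change was 0.06, the same median over all genes was 0.00, and the lowest adjusted p of a member was 0.557. The 3 members with an unadjusted p under 0.05, named after their values were seen, were Mcm3 (-0.55, SE 0.24, adjusted p = 0.557), Ccna2 (1.95, SE 0.91, adjusted p = 0.607) and Cenpa, the histone H3 variant of centromeres (-0.89, SE 0.42, adjusted p = 0.608). Every E+P library lay above every untreated one in 4 of 51 members (Ccna2, Cdt1, Mcm5 and Uhrf1) and below in 3 (Cenpa, Mcm3 and Mcm6), where 6.91% of all genes lay above and 6.06% below.

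In GFP+ stroma Mki67 measured 1.36, 10.8, 5.49 and 2.66 untreated and 9.10, 7.66 and 3.64 CPM after E+P, a log2 fold change of 0.41 (SE 0.77, adjusted p = 1.00). Top2a measured 0.151, 3.10, 2.44 and 0.367 untreated and 2.92, 1.90 and 1.87 CPM after E+P. Cdk1 measured 0.227, 0.465, 0.183 and 0.184 untreated and 0.325, 0.423 and 0.246 CPM after E+P. All 3 overlapped between treatments, and Cdk1 was close to the floor in every library. Foxm1 measured 5.15, 5.66, 3.54 and 5.14 untreated and 6.90, 9.09 and 4.58 CPM after E+P. Kif11 measured 2.12, 1.16, 2.62 and 1.93 untreated and 2.27, 0.951 and 1.77 CPM after E+P. Mcm2 measured 2.35, 5.66, 5.06 and 3.58 untreated and 4.30, 6.60 and 6.06 CPM after E+P. These 3 overlapped as well. Cdc6 measured 0.303, 2.25, 2.32 and 1.38 untreated and 0.487, 0.687 and 0.689 CPM after E+P, with the treated libraries inside the untreated range. Mcm5 measured 1.14, 1.94, 2.13 and 1.01 untreated and 3.01, 3.38 and 2.95 CPM after E+P, with the treated libraries higher (log2 fold change 1.00, SE 0.50, adjusted p = 0.654). Pcna measured 26.4, 36.2, 32.1 and 31.3 untreated and 26.4, 27.5 and 33.5 CPM after E+P, and the treatments overlapped.

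The other members described by gene in GFP+ stroma were low. Rrm2 ranged from 0.151 to 2.75 untreated and 0.0812 to 1.16 CPM after E+P. Ccnb1 ranged from 0 to 0.454 untreated and 0 to 0.581 CPM after E+P. Cdc20 ranged from 0.0757 to 1.38 untreated and 0.487 to 0.788 CPM after E+P. None of these 3 separated the treatments. Ccne1 ranged from 0.155 to 0.985 untreated and 0.406 to 0.886 CPM after E+P. Ccne2 ranged from 0.388 to 0.915 untreated and 0.492 to 0.650 CPM after E+P. E2f1 ranged from 1.63 to 4.70 untreated and 3.41 to 4.33 CPM after E+P. The treated libraries of these 3 lay inside the untreated range. Tk1 ranged from 0.275 to 0.775 untreated and 0.406 to 0.837 CPM after E+P. Brca1 ranged from 0.303 to 1.83 untreated and 1.13 to 2.03 CPM after E+P. Uhrf1 ranged from 0.0610 to 0.833 untreated and 0.845 to 1.08 CPM after E+P. Of these 3 only Uhrf1 kept its treated libraries above the untreated ones, by a narrow margin. The untested Bub1 was at 0 in 4 of 4 untreated libraries and at 0.244, 0.0528 and 0.246 CPM after E+P. The untested Aurkb ranged from 0 to 0.671 untreated and 0 to 0.423 CPM after E+P. Luminal epithelial genes (8 genes) summed to 19.8 to 92.4 untreated and 4.28 to 6.17 CPM after E+P in GFP+ stroma. Luminal progenitor genes (4 genes, Aldh1a3 by far the most abundant) summed to 37.6 to 67.2 and 12.1 to 27.4 CPM. Endothelial genes (6 genes, Tek the most abundant, Cldn5 at 0) summed to 188 to 271 and 137 to 156 CPM. In that list Tek ranged from 153 to 244 untreated and 81.5 to 97.5 CPM after E+P. Kdr went the other way, with 19.8 to 42.0 untreated and 47.0 to 56.3 CPM after E+P. The sum of lymphocyte genes (6 genes) was higher after E+P, with 0.388 to 1.29 and 1.67 to 3.01 CPM. The part of these levels in the members' values was not tested.

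In tdTomato+ stroma, 0 of 51 members were called by edgeR after E+P, where 0.124% of all genes were called in either direction. An unadjusted p under 0.05 was reached by 2 members and by 15.6% of all genes. Among the members limma-voom called 0, and DESeq2 called 1, Pola1, lower after E+P (-0.66, adjusted p = 0.00787). The median log2 fold change was 0.21, against -0.03 over all genes. The members with an unadjusted p under 0.05, named after their values were seen, were Pola1 and Cenpa. Pola1 measured 51.9, 58.2, 45.4 and 59.8 untreated and 32.6, 36.1 and 34.6 CPM after E+P (-0.64, SE 0.16, adjusted p = 0.0627). Cenpa measured 12.9, 38.7, 10.4 and 21.8 untreated and 10.1, 8.36 and 9.004 CPM after E+P (-1.19, SE 0.38, adjusted p = 0.130). In these 2 of 51 members every treated library lay below every untreated one, where 5.48% of all genes did. Pole, the catalytic subunit of DNA polymerase epsilon, was the 1 member of 51 with every treated library above, where 5.18% of all genes lay above. With no filter on low counts, 3 members were called, Mki67 higher (0.86, adjusted p = 0.00296) and Cenpa (-1.18, adjusted p = 0.00903) and Ube2c (-0.92, adjusted p = 0.00220) lower.

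In tdTomato+ stroma Mki67 measured 14.9, 93.8, 27.8 and 18.3 untreated and 102, 50.1 and 56.7 CPM after E+P, a log2 fold change of 0.85 (SE 0.71, adjusted p = 0.605). Untreated mouse 2 and treated mouse 1 were the high libraries of Mki67, and the groups overlapped. Top2a measured 6.75, 22.7, 7.90 and 0.681 untreated and 21.05, 6.78 and 4.23 CPM after E+P. Cdk1 measured 4.38, 3.16, 1.39 and 1.17 untreated and 4.70, 2.03 and 2.14 CPM after E+P. Foxm1 measured 2.28, 3.34, 5.98 and 4.96 untreated and 7.61, 5.14 and 3.80 CPM after E+P. None of these 3 genes separated the treatments. Mcm5 measured 1.71, 1.72, 5.05 and 1.36 untreated and 3.07, 2.27 and 1.59 CPM after E+P. Mcm2 measured 14.8, 9.13, 10.9 and 6.61 untreated and 7.41, 7.67 and 4.29 CPM after E+P. Pcna measured 28.1, 37.4, 49.1 and 48.0 untreated and 49.5, 51.5 and 40.1 CPM after E+P. The replication genes overlapped in the same way. Kif11 ranged from 0.486 to 5.87 untreated and 3.51 to 5.27 CPM after E+P.

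Of the remaining members in tdTomato+ stroma, Cdc6 ranged from 0.190 to 2.06 untreated and 0.692 to 1.47 CPM after E+P. Rrm2 ranged from 1.33 to 1.79 untreated and 0.940 to 2.55 CPM after E+P. E2f1 ranged from 0.0972 to 1.05 untreated and 0.858 to 1.43 CPM after E+P. All 3 overlapped between treatments. Ccnb1 ranged from 0 to 1.45 untreated and 0.551 to 1.89 CPM after E+P. Cdc20 ranged from 0.389 to 1.81 untreated and 0.593 to 2.39 CPM after E+P. Ccne1 ranged from 0.0664 to 1.81 untreated and 0.742 to 2.14 CPM after E+P. Their treated libraries lay across the upper end of the untreated ones. Ccne2 ranged from 1.17 to 3.45 untreated and 2.27 to 4.599 CPM after E+P. Tk1 ranged from 0.863 to 3.61 untreated and 0.593 to 3.31 CPM after E+P. Brca1 ranged from 0.681 to 5.33 untreated and 0.551 to 2.40 CPM after E+P. All 3 overlapped. Uhrf1 ranged from 1.43 to 3.34 untreated and 0.544 to 5.72 CPM after E+P. The untested Bub1 ranged from 0.0972 to 0.476 untreated and 0 to 2.04 CPM after E+P. The untested Aurkb ranged from 0 to 0.633 untreated and 0 to 1.69 CPM after E+P. Luminal epithelial genes (8 genes, none at 0) summed to 86.1, 322, 505 and 20.1 untreated and 9.91, 41.7 and 3.86 CPM after E+P, and skeletal muscle genes (6 genes, none at 0) to 8492, 9619, 3404 and 1903 CPM and 9439, 17667 and 5351 CPM, and the part of these levels in the members' values was not tested.

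The difference of the responses of GFP+ and tdTomato+ stroma was called by edgeR for 0 of 51 members, where 0.045% of all genes were called. An unadjusted p under 0.05 was reached by 3 members and by 10.4% of all genes, and DESeq2 and limma-voom each called 0 members. The members concerned, named after their values were seen, were Pola1 (0.61, SE 0.22, adjusted p = 0.335), Nusap1, a spindle assembly protein (-2.89, SE 1.18, adjusted p = 0.393), and Mcm2 (1.13, SE 0.49, adjusted p = 0.436). The median difference of responses was -0.10 over the members and 0.04 over all genes. With no filter on low counts 1 member was called.

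Between the lineages, the response of luminal cells minus that of stroma asks whether the hormones acted on the members more in the epithelium. Among GFP+ cells, 6 of 55 members were called larger in luminal cells, where 0.424% of all genes were, and 0 by edgeR were called smaller, where 0.496% of all genes were. In the smaller direction no member had an unadjusted p under 0.05 and neither DESeq2 nor limma-voom called any, while in the larger direction 43 had one (41 of the 51 tested within stroma), DESeq2 called 21 and limma-voom 3. Over all genes, 15.6% had an unadjusted p under 0.05 in either direction. The difference of responses was positive for 54 members with a median of 2.43, and of 2.41 over the 51, against -0.02 over all genes. The called members were from the helicase, the centromere and nucleotide supply: Mcm3 (2.97, SE 0.41, adjusted p = 0.000263), Cenpa (2.78, SE 0.55, adjusted p = 0.00603), Mcm4 (1.83, SE 0.35, adjusted p = 0.00518), Mcm7 (1.45, SE 0.31, adjusted p = 0.00959), Mcm6 (1.36, SE 0.26, adjusted p = 0.00554) and Rrm1 (1.30, SE 0.27, adjusted p = 0.00874). In GFP+ luminal cells Mcm3 measured 7.23, 9.47, 21.7 and 15.4 untreated and 84.8, 73.4 and 58.2 CPM after E+P, and in GFP+ stroma it measured 11.6, 13.5, 14.5 and 11.9 untreated and 7.72, 8.56 and 10.0 CPM after E+P. Mcm3 thus stood higher after E+P in every luminal library and lower in every stromal one. In GFP+ luminal cells Cenpa measured 5.52, 4.03, 11.3 and 9.36 untreated and 36.2, 25.4 and 22.6 CPM after E+P, and in GFP+ stroma it measured 2.80, 4.34, 2.26 and 2.94 untreated and 1.14, 2.01 and 1.72 CPM after E+P, with the same separation.

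In a fit with the mouse as a block, Mcm7 and Rrm1 missed the threshold in GFP+ cells (adjusted p = 0.0140 and 0.0151) and Foxm1, Mcm5, Pole, Cdc6 and Nusap1 passed it. With a mouse left out, the count of 6 was 1, 0 and 1 for treated mice 1, 2 and 3 and 1 and 2 for untreated mice 1 and 2. With library sizes in place of TMM the median of all genes was -0.13. By that scaling 47 of 183 called genes were larger in luminal cells (83 of 180 by TMM), and 4 of 4 called members were.

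Among tdTomato+ cells, 0 of 55 members were called by edgeR for a difference of responses between luminal cells and stroma, where 4.65% of all genes were called. An unadjusted p under 0.05 was reached by 11 members and by 24.5% of all genes. All 11 members were among the 51, and 10 of them had the larger response in luminal cells. DESeq2 called 2 members and limma-voom 0. The median difference of responses was 0.95 (0.96 over the 51), against -0.01 over all genes. The lowest adjusted p values were those of Mcm6 (-0.98, SE 0.26, adjusted p = 0.0172), Rrm1 (0.95, SE 0.27, adjusted p = 0.0252) and Pola1 (1.09, SE 0.35, adjusted p = 0.0422), named after their values were seen. With the mouse as a block, Mcm5 was called larger in luminal cells (1.75, adjusted p = 0.00584) and Mcm6 smaller. Scaled by library size alone, the median of all genes was -0.17, with 431 of 991 called genes larger (569 of 910 by TMM). By that scaling 1 member was called smaller, with no filter on low counts 1 was called, and without untreated mouse 4 1 was called.

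The GFP+ and tdTomato+ populations were also set against each other within a condition. These comparisons share libraries with the hormone comparisons, so they are not independent of them. In untreated luminal cells, 2 of 55 members were called higher in GFP+ than in tdTomato+ cells, where 6.98% of all genes were, and 0 by edgeR were called lower, where 8.42% of all genes were. In the lower direction 2 members had an unadjusted p under 0.05, and in the higher direction 11. Over all genes, 41.1% had one in either direction. DESeq2 called 4 members higher and 1 lower, and limma-voom called 2 higher and 0 lower. Pola1 measured 31.6, 33.1, 34.2 and 28.002 in GFP+ and 10.6, 3.96, 14.8 and 13.0 CPM in tdTomato+ cells (1.57, SE 0.29, adjusted p = 0.00179). Rrm1 measured 20.7, 22.9, 33.2 and 24.5 in GFP+ and 13.8, 12.2, 12.9 and 16.1 CPM in tdTomato+ cells (0.87, SE 0.15, adjusted p = 0.00132). Both genes were higher in every GFP+ library. Over the members the median log2 fold change was 0.60, against -0.01 over all genes. Mki67, with 40.9, 54.6, 257 and 174 in GFP+ and 15.0, 58.3, 92.0 and 88.7 CPM in tdTomato+ cells, overlapped between the populations (1.05, SE 0.59, adjusted p = 0.201). With the mouse as a block 7 members were called higher, the further ones being Bub1, Ccna2, Mcm5, Mcm7 and Rrm2, and in a fit on the compared groups alone 1 was. Without untreated mouse 1 the count of 2 was 1, and without untreated mouse 3 it was 4. With library sizes in place of TMM, 1369 of 2302 called genes were higher (1154 of 2547 by TMM), and 3 of 3 called members were.

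After E+P, 28 of 55 members were called higher in GFP+ than in tdTomato+ luminal cells, where 11.3% of all genes were, and 0 by edgeR were called lower, where 14.1% of all genes were. In the lower direction no member had an unadjusted p under 0.05 and neither DESeq2 nor limma-voom called any, while 51 had one in the higher direction. Over all genes, 47.6% had one in either direction. All 55 log2 fold changes were above 0, with a median of 1.84 against 0.00 over all genes. Ttk, with 19.7, 15.8 and 15.8 in GFP+ and 2.97, 2.27 and 1.76 CPM in tdTomato+ cells, had the largest called difference (2.84, SE 0.66, adjusted p = 0.00404). Kif23, the kinesin of the central spindle, measured 51.8, 55.4 and 45.4 in GFP+ and 12.9, 9.15 and 6.61 CPM in tdTomato+ cells (2.38, SE 0.58, adjusted p = 0.00669). Pole measured 57.01, 46.5 and 39.9 CPM and 13.5, 8.55 and 6.61 CPM (2.29, SE 0.57, adjusted p = 0.00676). The remaining members among the 5 largest, Cenpe (2.24, SE 0.59, adjusted p = 0.00936) and Mcm5 (2.23, SE 0.52, adjusted p = 0.00474), were likewise higher in every GFP+ library. Mki67 measured 1295, 1158 and 1106 in GFP+ cells and 265, 232 and 173 CPM in tdTomato+ cells, and its difference missed the threshold (2.37, SE 0.70, adjusted p = 0.0180) although the lowest GFP+ library was far above the highest tdTomato+ one.

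With the mouse as a block 50 members were called higher after E+P, Mki67 (2.39, adjusted p = 0.000468), Top2a (2.13, adjusted p = 0.000154), Cdk1 (2.06, adjusted p = 0.00819) and Uhrf1 (2.14, adjusted p = 0.000150) among the 22 further ones. The count was 49 by limma-voom, 46 by DESeq2, 49 in a fit on the compared groups alone and 18 with no filter, and 10, 7 and 9 without treated mouse 1, 2 or 3. With library sizes in place of TMM the median of all genes was 0.20, with 2798 of 4417 called genes higher (1870 of 4206 by TMM). The 2 luminal populations differed in the marker lists in the same libraries. The mitochondrial share was 6.23 to 9.35% in GFP+ and 9.90 to 10.4% in tdTomato+ cells untreated, and 13.7 to 15.9% and 10.7 to 12.8% after E+P. Hormone-sensing genes were called lower in GFP+ cells for 4 of 5 genes untreated and 5 of 5 after E+P, luminal progenitor genes were called higher for 4 of 4 in both conditions, and the alveolar genes (6 genes, Csn3 the most abundant, Wap at 0 in tdTomato+ cells) summed to 476 to 1221 CPM in GFP+ and 29.9 to 188 CPM in tdTomato+ cells after E+P, with 1 of 5 tested called higher. The part of these differences in the members' levels was not tested.

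In the stroma most members had the higher level in tdTomato+ cells. Untreated, 1 of 51 members was called higher in GFP+ stroma, where 13.5% of all genes were, and 10 were called lower, where 14.9% of all genes were. The median log2 fold change was -0.84, against -0.02 over all genes. E2f1 was the member higher in GFP+ stroma, with 4.47, 1.63, 4.70 and 2.85 CPM against 1.05, 0.633, 0.863 and 0.0972 CPM in tdTomato+ stroma (2.33, SE 0.54, adjusted p = 0.00210). Cdk1 measured 0.227, 0.465, 0.183 and 0.184 in GFP+ and 4.38, 3.16, 1.39 and 1.17 CPM in tdTomato+ stroma (-3.23, SE 0.63, adjusted p = 0.000523). Mki67 measured 1.36, 10.8, 5.49 and 2.66 CPM and 14.9, 93.8, 27.8 and 18.3 CPM (-2.94, SE 0.74, adjusted p = 0.00753). The lowest tdTomato+ library of both genes was above every GFP+ library. Cenpa measured 2.80, 4.34, 2.26 and 2.94 CPM and 12.9, 38.7, 10.4 and 21.8 CPM (-2.79, SE 0.37, adjusted p = 1.28e-05). Tpx2, which builds the spindle around chromosomes, measured 1.14, 2.56, 1.16 and 0.459 CPM and 8.66, 9.13, 4.78 and 3.01 CPM (-2.27, SE 0.56, adjusted p = 0.00337). Neither of them overlapped between the populations. The other members lower in GFP+ stroma were Rrm1, Mcm2, Mcm7, Mcm4 and Pola1, with log2 fold changes from -1.36 to -0.73.

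Ube2c, the ubiquitin-conjugating enzyme that works with the anaphase-promoting complex, had the largest difference in the stroma, but it shares exon bases with Tnnc2, a troponin of fast skeletal muscle. It measured 0.0757, 0.0775, 0.427 and 0 CPM in untreated GFP+ stroma and 175, 47.8, 10.3 and 36.2 CPM in tdTomato+ stroma (-8.61, SE 1.11, adjusted p = 7.15e-05). The untreated GFP+ libraries held 1, 1, 7 and 0 counts, mostly under the floor of 3 counts, so the size of this difference is uncertain. After E+P Ube2c measured 0.487, 0.211 and 0.640 CPM and 39.0, 45.2 and 19.6 CPM (-6.27, SE 1.09, adjusted p = 0.000714). Untreated tdTomato+ mouse 1 was the highest. Tnnc2 had 16457, 15269, 6034 and 4682 counts in the untreated and 23706, 40830 and 9536 counts in the treated tdTomato+ libraries, against at most 4 counts in a GFP+ stromal library. For each 100 counts of Tnnc2 there were 2.24 to 11.2 counts of Ube2c in tdTomato+ stroma. How many of the reads of Ube2c came from Tnnc2 was not tested. Without Ube2c, a choice made after seeing the data, 10 members were called untreated and 8 after E+P.

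**Figure D3:**
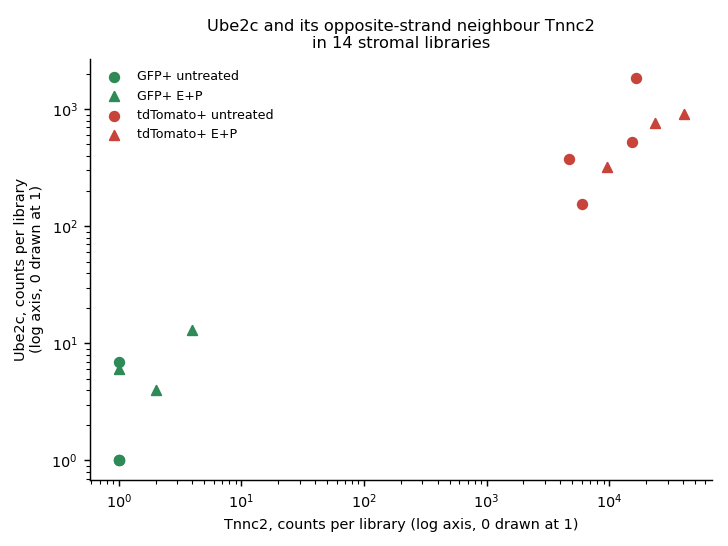
Counts of Ube2c against counts of Tnnc2 in the 14 stromal libraries, both on log axes, with 1 point for each library and counts of 0 drawn at 1. Circles are untreated libraries and triangles are libraries after E+P.

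After E+P, 0 of 51 members by edgeR were called higher in GFP+ stroma, where 14.2% of all genes were, and 9 were called lower, where 13.9% of all genes were. In the higher direction 1 member had an unadjusted p under 0.05, where 47.4% of all genes had one in either direction. DESeq2 called 1 member higher and 12 lower, and limma-voom called 0 higher and 9 lower. Over the members the median log2 fold change was -1.20, against -0.01 over all genes. Mki67 measured 9.10, 7.66 and 3.64 in GFP+ and 102, 50.1 and 56.7 CPM in tdTomato+ stroma (-3.38, SE 0.85, adjusted p = 0.00759). Cdk1 measured 0.325, 0.423 and 0.246 CPM and 4.70, 2.03 and 2.14 CPM (-3.14, SE 0.70, adjusted p = 0.00153). The populations did not overlap in either. Prc1, which bundles microtubules of the midzone, measured 1.71, 0.898 and 0.886 CPM and 10.2, 5.93 and 3.43 CPM (-2.52, SE 0.57, adjusted p = 0.00193). Cenpa measured 1.14, 2.01 and 1.72 CPM and 10.1, 8.36 and 9.004 CPM (-2.49, SE 0.44, adjusted p = 0.000197). In these too every tdTomato+ library was above every GFP+ one. Lower too were Ccne2 (-2.45), Tyms (-1.28), Mcm7 (-0.94) and Rrm1 (-0.89).

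With the mouse as a block, Mcm2 missed the threshold in untreated stroma (adjusted p = 0.0102) and Top2a passed it as lower in GFP+ cells (-2.65, adjusted p = 0.00222), and after E+P Ccne2 and Mcm7 missed it (adjusted p = 0.0111 and 0.0113) and Cenpf passed it (-2.67, adjusted p = 0.00111). The untreated count of 11 was 7 and 6 without untreated mouse 1 or 3 and 18 by DESeq2, and the count of 9 after E+P was 2, 2 and 3 without treated mouse 1, 2 or 3 and 14 in a fit on the compared groups alone. The 2 stromal populations differed in their markers in both conditions, with 7 of 7 fibroblast genes called higher in GFP+ stroma, and 6 of 7 pericyte and smooth muscle genes and 6 of 6 skeletal muscle genes called lower. In tdTomato+ stroma macrophage genes (7 genes, Ptprc the most abundant, with Adgre1 and C1qb at 0 in both conditions) summed to 22.9 to 36.8 untreated and 18.002 to 23.6 CPM after E+P, against 3.78 to 7.34 and 3.28 to 5.77 CPM in GFP+ stroma (2 of 4 tested called lower in GFP+ stroma). Endothelial genes (6 genes, Tek the most abundant untreated, Cldn5 at 0 in GFP+ stroma, 1 called higher and 4 lower) summed to 64.2 to 143 and 101 to 252 CPM in tdTomato+ stroma and to 188 to 271 and 137 to 156 CPM in GFP+ stroma. The mitochondrial share was 4.44 to 4.92% untreated and 4.30 to 5.09% after E+P in GFP+ stroma, and 6.70 to 10.8% and 9.56 to 10.4% in tdTomato+ stroma. The part of these cell types and shares in the members' levels was not tested.

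The last pair of comparisons sets untreated luminal cells against untreated stroma, with all 55 members tested. Aurkb, Bub1, Cdc25c and Ttk, too low to test within stroma, entered through their luminal counts, so counts are also given for the other 51. Among GFP+ cells, 31 members were called higher in luminal cells, where 18.8% of all genes were, and 1 was called lower, where 22.5% of all genes were. Of the 51, 29 were called higher and 1 lower (median log2 fold change 1.99). Over the 55 the median was 2.08, also with Bub1 at its bound, against 0.02 over all genes. Bub1 was at 0 in the 4 GFP+ stromal libraries and at 0.317, 1.41, 4.80 and 1.97 CPM in GFP+ luminal cells, at least 37.8-fold higher by the mean against a floor of 3 counts over the group (0.0562 CPM). That mean is carried largely by mouse 3 (4.80 CPM), and the bound would be lower without that library. Mki67 measured 40.9, 54.6, 257 and 174 in luminal cells and 1.36, 10.8, 5.49 and 2.66 CPM in stroma (4.69, SE 0.76, adjusted p = 1.99e-05). Top2a measured 10.7, 14.3, 75.9 and 43.3 in luminal cells and 0.151, 3.10, 2.44 and 0.367 CPM in stroma (4.52, SE 0.86, adjusted p = 0.000134). Even the lowest luminal library of these genes was above the highest stromal one. Ccna2 measured 1.97, 2.62, 15.3 and 10.4 in luminal cells and 0.454, 0.388, 0.122 and 0.275 CPM in stroma (4.62, SE 0.93, adjusted p = 0.000213). Ube2c measured 1.39, 1.51, 6.17 and 4.56 in luminal cells and 0.0757, 0.0775, 0.427 and 0 CPM in stroma (4.33, SE 1.02, adjusted p = 0.00105). Its stromal libraries held 1, 1, 7 and 0 counts, so the size of its difference is uncertain. Neither Ccna2 nor Ube2c overlapped between the lineages. E2f1 was the member called lower in luminal cells, with 0.697, 0.604, 1.66 and 1.49 CPM against 4.47, 1.63, 4.70 and 2.85 CPM (-1.60, SE 0.50, adjusted p = 0.00888), and its highest luminal library reached the lowest stromal one. Without untreated mouse 3 the count of 32 was 18, and with the mouse as a block Nusap1 also passed (1.92, adjusted p = 0.00529). Scaled by library size alone, the median of all genes was 0.46, with 6283 of 9423 called genes higher (3680 of 8082 by TMM). By that scaling 41 of 41 called members were higher. The part of the mitochondrial share, 6.23 to 9.35% in luminal cells and 4.44 to 4.92% in stroma, was not tested.

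Among untreated tdTomato+ cells, 7 of 55 members were called higher in luminal cells, where 21.9% of all genes were, and 7 were called lower, where 26.8% of all genes were. Over the members the median log2 fold change was 0.62 (0.52 over the 51, with the same calls), against -0.06 over all genes. Aurka measured 3.51, 5.90, 5.35 and 5.74 in luminal cells and 0.285, 1.72, 0.399 and 0 CPM in stroma (3.08, SE 0.65, adjusted p = 0.000230). Nusap1 measured 1.24, 3.90, 6.22 and 3.76 in luminal cells and 0.285, 1.08, 1.06 and 0.194 CPM in stroma (2.44, SE 0.74, adjusted p = 0.00662). Neither overlapped between the lineages. Mcm6 measured 85.5, 102, 96.4 and 68.1 in luminal cells and 19.8, 15.99, 23.2 and 13.7 CPM in stroma (2.27, SE 0.18, adjusted p = 8.28e-11). Gins2, a subunit of the active helicase, measured 4.65, 4.87, 5.64 and 4.23 in luminal cells and 2.76, 0.271, 0.465 and 0.486 CPM in stroma (2.30, SE 0.52, adjusted p = 0.000481). In both every luminal library was above every stromal one. Anln (2.26), Kif2c, a kinesin that shortens microtubules (2.11), and Brca1 (1.77) were called higher as well. Ube2c measured 0.878, 3.04, 4.77 and 3.80 in luminal cells and 175, 47.8, 10.3 and 36.2 CPM in stroma (-4.44, SE 0.70, adjusted p = 1.07e-05). Pola1 measured 10.6, 3.96, 14.8 and 13.0 in luminal cells and 51.9, 58.2, 45.4 and 59.8 CPM in stroma (-2.34, SE 0.24, adjusted p = 5.49e-09). Rrm1 measured 13.8, 12.2, 12.9 and 16.1 in luminal cells and 65.1, 58.4, 38.5 and 34.0 CPM in stroma (-1.83, SE 0.18, adjusted p = 5.58e-09). These 3 genes were higher in every stromal library. Tyms (-1.27), Pcna (-1.12), Cenpa (-1.05) and Mcm4 (-0.72) were called lower in luminal cells too.

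In tdTomato+ cells a block for the mouse moved Cenpa above the threshold (adjusted p = 0.0149) and called Mcm2, Kif20a and Mybl2 higher, a fit on the compared groups alone called 8 members, and without Ube2c, chosen after seeing the data, 13 were called. Scaled by library size alone, the median of all genes was 0.20, with 5636 of 9952 called genes higher (4289 of 9533 by TMM). By that scaling 10 of 15 called members were higher.

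Genes outside the 55 were taken from 3 further lists of the cell cycle: 56 genes of replication and S phase, 74 of mitosis and 23 of cell cycle exit and quiescence. These lists too were chosen with earlier results of these data known. In GFP+ luminal cells after E+P, 40 of 56 replication genes were called higher, 51 of 74 mitosis genes and 2 of 22 tested exit genes, where 3.17% of all genes were, with median log2 fold changes of 1.49, 2.55 and 0.21. The largest were Ticrr, a factor of origin firing (3.37, SE 0.52, adjusted p = 0.00155), in the first list and Iqgap3 (3.40, SE 0.58, adjusted p = 0.00288) in the second. The exit genes called higher were Rbl1, a relative of the retinoblastoma protein (1.24, SE 0.21, adjusted p = 0.00209), and Fzr1, an activator of the anaphase-promoting complex in G1 (0.54, SE 0.12, adjusted p = 0.00959).

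In tdTomato+ luminal cells after E+P, 4 of 56 replication genes were called higher and 1 lower, 8 of 74 mitosis genes higher, and 2 of 22 exit genes higher and 1 lower, where 7.63% of all genes were called higher and 6.44% lower. Ticrr (2.61, SE 0.54, adjusted p = 0.00394) and Gtse1 (2.57, SE 0.43, adjusted p = 0.000729) were among the higher genes, and Pold3 was lower (-0.74, SE 0.13, adjusted p = 0.000922). The exit genes were the cyclin-dependent kinase inhibitors Cdkn2b, with a mean of 0.871 ± 0.458 (SD) untreated and 5.19 ± 2.02 CPM after E+P (2.58, SE 0.50, adjusted p = 0.00212), and Cdkn1a, with 21.6 ± 8.51 and 49.3 ± 6.32 CPM (1.22, SE 0.28, adjusted p = 0.00577), and Btg1, an antiproliferative gene that was lower (-0.71, SE 0.14, adjusted p = 0.00222). In both stromal populations edgeR called 0 of the 52 replication, 61 mitosis and 22 exit genes tested after E+P. Of all genes, 0.231% were called in GFP+ and 0.124% in tdTomato+ stroma, in either direction.

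The response of GFP+ luminal cells exceeded that of tdTomato+ luminal cells for 3 of 56 replication genes, led by the helicase Blm (1.54, SE 0.25, adjusted p = 0.00256), and for 4 of 74 mitosis genes, led by the condensin subunit Smc4 (1.54, SE 0.19, adjusted p = 0.000498), where 0.786% of all genes were called. It exceeded that of GFP+ stroma for 8 of 52 replication and 6 of 61 mitosis genes tested in stroma too (all genes 0.424%), led by E2f7 (4.12, SE 0.73, adjusted p = 0.00261) and Incenp (2.71, SE 0.48, adjusted p = 0.00275). Among tdTomato+ cells it was larger in luminal cells for Stmn1 (2.62, SE 0.61, adjusted p = 0.00666) and the inhibitor Cdkn1c (2.91, SE 0.70, adjusted p = 0.00865) and smaller for Btg1 (-1.02, SE 0.21, adjusted p = 0.00274). Set against tdTomato+ luminal cells, GFP+ luminal cells had 5 of 56 replication genes called higher untreated and 40 after E+P, and 2 and 41 of 74 mitosis genes, where 6.98% and 11.3% of all genes were. In the lower direction 1 mitosis gene was called, untreated, and of 22 exit genes 2 were called higher and 1 lower untreated and 6 and 3 after E+P (all genes lower 8.42% and 14.1%). After E+P Cdkn2b (-2.88, SE 0.57, adjusted p = 0.00126) and Cdkn1a (-1.97, SE 0.31, adjusted p = 0.000285) were lower in GFP+ luminal cells, and another inhibitor, Cdkn2c (2.12, SE 0.51, adjusted p = 0.00484), Gas1, a growth arrest gene (3.06, SE 0.56, adjusted p = 0.000731), and Rb1 (1.91, SE 0.32, adjusted p = 0.000559) were higher.

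In untreated stroma 12 of 52 replication genes were called lower in GFP+ than in tdTomato+ cells, and of 61 mitosis genes 2 higher and 6 lower, and of 22 exit genes 3 and 4, where 13.5% of all genes were called higher and 14.9% lower. After E+P 8 of 52 and 4 of 61 were called lower (all genes 13.9%), and 2 of 22 exit genes higher and 5 lower. The largest untreated differences were those of Timeless, a protein of the replication fork (-3.16, SE 0.26, adjusted p = 1.01e-07), and the condensin subunit Ncaph (-3.41, SE 0.52, adjusted p = 5.33e-05). Cdkn1c was higher in GFP+ stroma untreated (1.77, SE 0.33, adjusted p = 0.000721) and after E+P (3.92, SE 0.41, adjusted p = 5.25e-06), and Cdkn1a was lower in both conditions, with -2.09 (SE 0.16, adjusted p = 2.24e-08) and -1.96 (SE 0.18, adjusted p = 2.48e-07). Of the genes tested in stroma too, in GFP+ cells 25 of 52 replication genes were called higher in luminal cells than in stroma and 2 lower, 41 and 1 of 61 mitosis genes, and 6 and 5 of 22 exit genes (all genes 18.8% and 22.5%), among the higher Ticrr (3.89, SE 0.76, adjusted p = 0.000125). In tdTomato+ cells 8 of these replication genes were called higher in luminal cells and 11 lower, 6 and 4 mitosis genes, and 6 and 9 exit genes (all genes 21.9% and 26.8%), with Timeless (-4.71, SE 0.31, adjusted p = 3.69e-12) and Gas1 (-6.38, SE 0.46, adjusted p = 2.32e-11) far lower in luminal cells than in stroma.

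The promoters of the members were searched for motifs of cell cycle genes. RefSeq promoters on build GRCm38.p6, each 250 bases before and 50 after the gene start, were matched by symbol for 44 of 55 members, and Aurkb, Ccna2, Ccne2, Cdc25c, Foxm1, Gins1, Gins2, Kif20a, Mcm4, Pole and Tpx2 had no entry. The search covered both strands for the CHR element (TTTGAA or TTCGAA), the CCAAT box (CCAAT) and a core E2F site (TTCCCGC or TTGGCGC or TTCGCGC), and the E2F letters can overlap the CCAAT box, as in GCGCCAAT. Members were counted by gene, with a motif in any promoter of the gene, and 3 members had more than 1 promoter. The background was counted by promoter, with 32851 promoters for 27025 symbols, so the units differ. A CHR element was present in 22 of 44 members (50%) and in 19.2% of all 32851 promoters. A CCAAT box was present in 32 members (72.7%) and 37.4% of all promoters, an E2F core in 15 members (34.1%) and 8.07% of all, and both a CHR element and a CCAAT box in 20 members (45.5%) and 7.53% of all. Of 23 matched mitotic members 18 held a CHR element, 18 a CCAAT box and 3 an E2F core, and of 21 matched G1/S and replication members 4 held a CHR element, 14 a CCAAT box and 12 an E2F core. A match describes the letters and shows no binding.

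The upstream part of 4 promoters is printed, 3 from mitotic genes and 1 from the helicase, to show how the motifs lie in genes of each kind. Bases in annotated exons were left out, so motifs nearer to the start or behind it are not shown. Capitals mark the motifs. Ccnb1 lies at chr13:100786571-100786736 (reverse strand), and its GCGCCAAT joins an E2F core read on the reverse strand (GCGCCAA) to a CCAAT box. Ccnb2 lies at chr9:70421555-70421804 (reverse strand) and shows 1 CHR element and 3 CCAAT boxes. Cdk1 lies at chr10:69352939-69353162 (reverse strand) and shows 2 E2F cores, 3 CCAAT boxes on the reverse strand (ATTGG) and a CHR element. Mcm5 lies at chr8:75109259-75109508 (forward strand) and shows 3 E2F cores, 2 of them overlapping on opposite strands in TTCGCGCCAA, and 2 CCAAT boxes.
Ccnb1: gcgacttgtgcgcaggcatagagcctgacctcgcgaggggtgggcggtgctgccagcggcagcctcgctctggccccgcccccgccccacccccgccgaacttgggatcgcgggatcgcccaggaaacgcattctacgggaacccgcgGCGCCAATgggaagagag
Ccnb2: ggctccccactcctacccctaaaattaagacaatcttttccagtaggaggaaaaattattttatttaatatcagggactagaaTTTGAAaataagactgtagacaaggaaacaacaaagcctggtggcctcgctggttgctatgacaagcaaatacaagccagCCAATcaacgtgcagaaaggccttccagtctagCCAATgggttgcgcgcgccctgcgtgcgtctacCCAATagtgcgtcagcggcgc
Cdk1: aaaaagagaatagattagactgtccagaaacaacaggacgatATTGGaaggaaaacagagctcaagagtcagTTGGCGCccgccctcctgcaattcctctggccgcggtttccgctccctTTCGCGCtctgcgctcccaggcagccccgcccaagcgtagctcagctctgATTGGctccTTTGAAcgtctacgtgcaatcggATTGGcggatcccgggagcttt
Mcm5: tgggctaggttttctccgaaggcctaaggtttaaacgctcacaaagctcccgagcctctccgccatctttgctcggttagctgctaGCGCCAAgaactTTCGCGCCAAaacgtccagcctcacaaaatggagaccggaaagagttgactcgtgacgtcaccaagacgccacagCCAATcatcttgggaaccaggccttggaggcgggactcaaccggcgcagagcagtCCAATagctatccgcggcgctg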

How the data were processed

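Gene counts were used as deposited by the authors, who aligned paired reads to mouse GRCm38.p5 with STAR 2.5.2a according to the submitters' notes. Genes were matched to GENCODE M21 by Ensembl ID without its version, and 50376 of 50600 had an entry. Calls came from edgeR 4.0.16 (TMM, filterByExpr, robust quasi-likelihood F-test, Benjamini-Hochberg) in R 4.3.3, with 1 fit for the 4 luminal groups (16538 genes), 1 for the 4 stromal groups (17783 genes) and 1 for all 8 groups (19569 genes) where lineages were compared. The alternatives were limma-voom (limma 3.58.1, the package of the study), a Wald test in DESeq2 1.42.0, other scalings, no low-count filter, only the compared groups, the mouse or the replicate number as a block, an adjusted p under 0.05, and each mouse left out in turn. Tables and figures were made with Python 3.11.15, numpy 2.4.6, pandas 2.3.3 and matplotlib 3.10.9, and the code was tested on simulated data. Members and lists were chosen with earlier results of these data known. Described in full were Mki67, Top2a, Cdk1, Ccnb1, Foxm1, Kif11, Bub1, Aurkb, Cdc20, Ccne1, Ccne2, E2f1, Mcm2, Mcm5, Cdc6, Pcna, Rrm2, Tk1, Brca1 and Uhrf1. To these were added the called members with the largest log2 fold change, up to 5 in each direction, and up to 3 in each direction from each further list, and any other named gene was chosen after its values were seen. A gene that the rule also names is not reported here. After removal of group means, libraries of the same mouse (same number and treatment in the titles) correlated more than other pairs, with a mean r of 0.157 against -0.0605 between the luminal subsets, 0.0496 against -0.0194 between the stromal subsets and 0.0547 against -0.0213 between the lineages, and the fit with the mouse as a block was kept as an alternative. The marker lists not described in full with the results were lymphocyte genes (at most 6.13 CPM in a library), erythroid genes (at most 28.5 CPM) and Schwann cell and glial genes (at most 314 CPM, in GFP+ luminal cells, with Sox10 the most abundant).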

Additional observations from a re-analysis of the deposited data

Results flagged for a closer look

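The 20 members described in full and the sum of all 55 were looked at in the 4 untreated groups. In 5 of these 84 sets of 4 libraries, each of a single member, a library lay far from the others, where about 1 in 20 would by chance. In untreated tdTomato+ stroma of mouse 2, Mki67 was at 93.8 CPM, against 14.9 to 27.8 CPM in the other 3 mice. In untreated GFP+ stroma of mouse 2, Cdk1 was at 0.465 CPM, against 0.183 to 0.227 CPM, which is 6 counts against 2 or 3, near the floor of 3 counts. Mcm5 was at 13.3 CPM in untreated GFP+ luminal cells of mouse 3, against 3.93 to 5.27 CPM, and at 5.05 CPM in its tdTomato+ stroma, against 1.36 to 1.72 CPM. In untreated tdTomato+ luminal cells of mouse 3, Brca1 was at 11.8 CPM, against 7.92 to 8.57 CPM.

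The response to E+P differed between GFP+ and tdTomato+ luminal cells for Aurka (2.57 on the log2 scale) and Mcm6 (2.15). It differed between the luminal cells and the stroma among GFP+ cells for Mcm3 (2.97), Cenpa (2.78), Mcm4 (1.83), Mcm7 (1.45), Mcm6 (1.36) and Rrm1 (1.30). With the mouse as a block Mcm7 and Rrm1 missed the threshold (adjusted p = 0.0140 and 0.0151), and each of these counts of called members fell to 0 without 1 of the mice.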

How the results depend on the processing

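No call turned its direction under any alternative, and where a count moved the cause was not tested. With no low-count filter, the count of members called was 28 for the hormone response of GFP+ luminal cells, 3 for that of tdTomato+ stroma, 1 for the difference of responses between the stromal subsets, 1 for that between the lineages in tdTomato+ cells and 18 for GFP+ against tdTomato+ luminal cells after E+P. With only the compared groups in the fit it was 20 for E+P in GFP+ luminal cells, 1 and 49 for GFP+ against tdTomato+ luminal cells untreated and after E+P, 14 for the stromal subsets after E+P and 8 for luminal cells against stroma in tdTomato+ cells. By DESeq2 it was 20 for E+P in tdTomato+ luminal cells, 1 for E+P in tdTomato+ stroma, 6, 21 and 2 for the differences of responses between luminal subsets, between lineages in GFP+ cells and between lineages in tdTomato+ cells, 5 and 46 for luminal subsets untreated and after E+P, and 18 for untreated stromal subsets. By limma-voom it was 4 and 3 for the differences of responses between luminal subsets and between lineages in GFP+ cells, and 49 for luminal subsets after E+P. With library size only it was 3 for E+P in tdTomato+ luminal cells and 1 for the difference of responses between lineages in tdTomato+ cells.

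At an adjusted p under 0.05 the count was 22 for E+P in tdTomato+ luminal cells, 5, 17 and 3 for the differences of responses between luminal subsets, between lineages in GFP+ cells and between lineages in tdTomato+ cells, 7 and 50 for luminal subsets untreated and after E+P, and 20 and 14 for stromal subsets untreated and after E+P. With the mouse as a replicate block it was 8 and 2 for the differences of responses between luminal subsets and between lineages in tdTomato+ cells, and 7 and 50 for luminal subsets untreated and after E+P, and beyond the calls given with the results this block changed no other call. Replicate numbers are shared between treatments without sharing a mouse (mean r -0.0149 for the same number and 0.005 for others), and with that number as a replicate block the count for E+P was 36 and 5 in GFP+ and tdTomato+ luminal cells and 0 in both stromal populations.

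With each mouse left out, the count ran from 8 to 46 for E+P in GFP+ luminal cells, 0 to 11 in tdTomato+ luminal cells, 0 to 5 for the difference of responses between luminal subsets, 0 to 9 between lineages in GFP+ cells and 0 to 1 in tdTomato+ cells. It ran from 1 to 4 and from 7 to 42 for luminal subsets untreated and after E+P, 6 to 11 and 2 to 10 for stromal subsets untreated and after E+P, and 18 to 33 and 10 to 13 for luminal cells against stroma in GFP+ and tdTomato+ cells. Without Ube2c, an alternative chosen after seeing the data, 10, 8 and 13 members were called for stromal subsets untreated, stromal subsets after E+P and tdTomato+ luminal cells against stroma. Low counts limit the members in stroma, where 4 of 55 could not be tested. Groups of 3 and 4 mice limit every count.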
